A study of Mus musculus with 6 samples.

Results

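Dietary fat handling was followed in mouse intestinal tumour cultures through 10 genes, Apoa1, Apoa4, Apob, Apoc3, Mttp, Fabp1, Fabp2, Dgat1, Dgat2 and Mogat2. They were chosen by name, as the genes with these symbols in the GENCODE annotation of GRCm38, and all 10 were found among the 49585 gene identifiers of the count tables. The rule itself uses no measured value. Tumoroids, Matrigel cultures of intestinal adenoma cells, were compared by RNA sequencing in 3 knock-out and 3 wild-type libraries. The knock-out cultures were IKKa FL/FL and the wild-type cultures IKKa +/+, and all of them were APC min/+ with Villin-Cre on the C57BL/6 strain. Both genotypes therefore carried the Min allele of Apc in 1 copy and a Cre recombinase driven by the promoter of Villin, an epithelial gene of the gut, and they differed in the floxed alleles of Chuk, the gene of the kinase IKKa. Both were grown in medium with Noggin, R-spondin, EGF, basic FGF and a ROCK inhibitor. Neither the ages of the mice nor the number of mice or clones behind a genotype is stated in the labels.

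Absorptive cells of the small intestine, the enterocytes, take up fatty acids and monoacylglycerol that pancreatic lipase has freed from dietary fat. Cytosolic binding proteins carry the fatty acids to the endoplasmic reticulum, where acyltransferases join them to monoacylglycerol and then to diacylglycerol and so rebuild triacylglycerol. A transfer protein loads this fat onto apolipoprotein B as that protein is made, and the particle collects further apolipoproteins and leaves the cell as a chylomicron, while fat that is not exported is held in lipid droplets.

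The libraries held from 20749747 to 31875723 counts, and Chuk had 29.4 ± 5.28 CPM in knock-out and 101 ± 5.21 CPM in wild-type tumoroids (CPM are counts scaled to library size after TMM adjustment, mean ± SD, n = 3 each). Knock-out replicate 2 stood apart from the other knock-out libraries, with chi-square values per degree of freedom of 36.4 and 37.0 against them, where those libraries had 5.64 between themselves. Sex-linked transcripts differed as well, with 80.1 ± 3.38 CPM of the Y-linked gene Eif2s3y in knock-out libraries, against 0 counts in wild-type libraries, and 6 counts of Xist in the knock-out libraries together, against 95406 in the wild-type libraries. The effect of genotype and that of sex-linked expression cannot be told apart here, and none of the 10 genes lies on chromosome X or Y. The label of intestinal adenoma was set against epithelial and enterocyte markers. Epcam, an epithelial adhesion protein, had 411 ± 12.9 CPM in knock-out and 915 ± 30.6 CPM in wild-type libraries, and Vil1, which encodes villin of the microvilli, had 231 ± 16.2 CPM in knock-out and 428 ± 16.1 CPM in wild-type libraries. By the test given below, 3 of 10 epithelial markers were higher and 6 lower in the knock-out, beside 30.4% higher and 27% lower among all genes tested. Of 20 enterocyte markers 15 had enough counts to be tested, of which 2 were higher and 12 lower. Among those 12, Vil1 fell least, while Slc5a1 had 6 counts in the knock-out libraries and 5692 in the wild-type libraries. The 3 transporter genes Slc2a2, Slc15a1 and Slc6a19 were listed at 0 in all 6 libraries, where a 0 may arise in the counting. The labels call the libraries biological replicates without saying whether they came from separate mice or cultures, so the p-values cover the variation among these libraries only, and that variation may be technical.

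Of the 10 genes, 6 had enough counts to be tested. In the knock-out, 4 of them were higher, namely Apob, Mttp, Dgat2 and Mogat2, and 2 were lower, namely Fabp2 and Dgat1 (quasi-likelihood test of edgeR, p under 0.05 after Benjamini-Hochberg adjustment over 13759 genes). Among all genes tested, 57.4% were called, 30.4% higher and 27% lower, so calls were common in this comparison. The 3 knock-out values did not overlap the 3 wild-type values in 5 of the 6 genes, all but Dgat1, against 63.1% of all genes tested (32.7% with the knock-out above and 30.4% with the knock-out below). The median log2 fold change of the 6 genes was 1.03, beside 0.0022 over all genes tested. Of the remaining 4 genes, Apoa4, Apoc3 and Fabp1 were listed at 0 in every library and Apoa1 had too few counts to pass the filter. These are tumour cultures sequenced in bulk, so fewer cells of a type and less RNA per cell cannot be told apart in any value below.

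**Figure D1:**
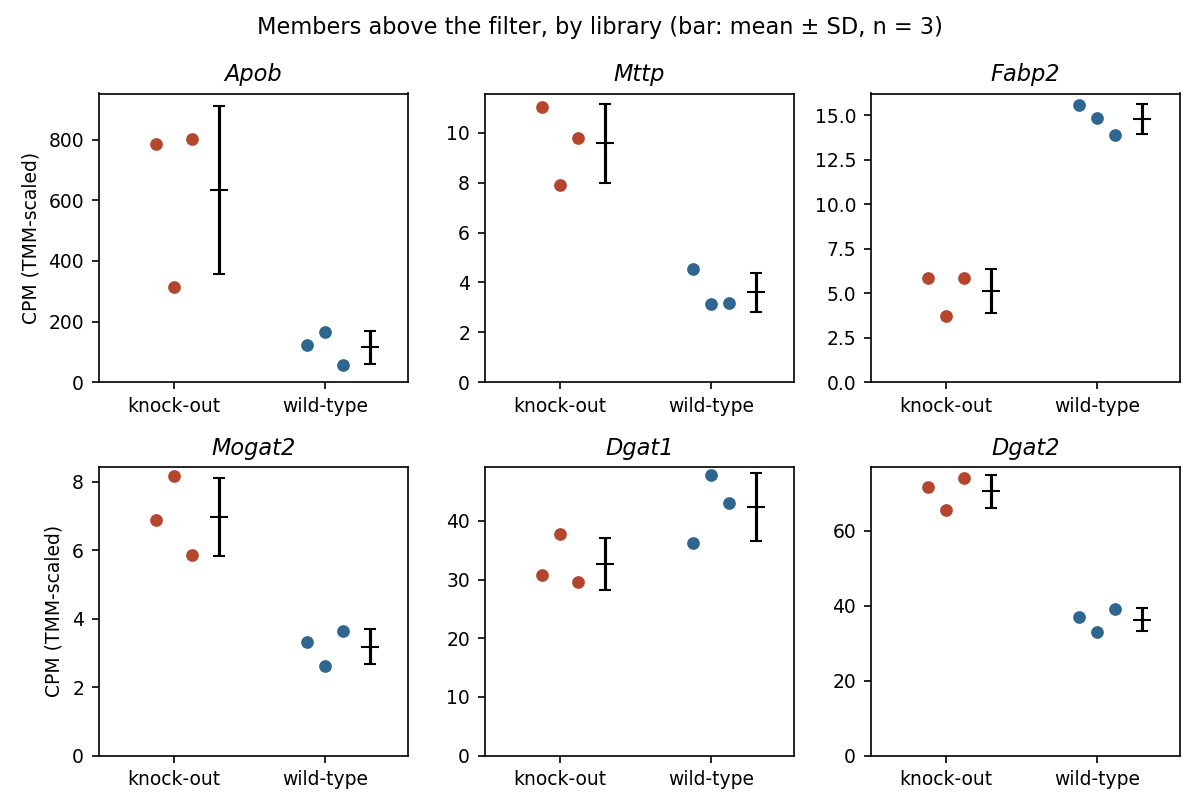
Each panel shows a gene that passed the filter, with CPM after TMM scaling on the vertical axis from 0, knock-out libraries in red on the left, wild-type libraries in blue on the right, and bars for the mean ± SD of the 3 libraries. Apob, Mttp, Mogat2 and Dgat2 sit higher in every knock-out library, Fabp2 sits lower in every knock-out library, and the Dgat1 values of the genotypes overlap.

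Fabp2 encodes the intestinal fatty acid binding protein, a small carrier of long-chain fatty acids in the enterocyte cytosol. It had 5.87, 3.71 and 5.84 CPM in knock-out replicates 1, 2 and 3, against 15.6, 14.9 and 13.9 CPM in wild-type replicates 1, 2 and 3. The highest knock-out library was thus below the lowest wild-type library. Fabp2 fell by 1.51 on the log2 scale, with a standard error of 0.19, which is 2.85-fold lower in the knock-out (edgeR, adjusted p = 2e-05). Fabp2 (ENSMUSG00000023057) lies on chromosome 3 from 122895072 to 122899506 on the plus strand.

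Fabp1, the liver-type fatty acid binding protein, is made in enterocytes of the proximal intestine as well as in hepatocytes. Its gene (ENSMUSG00000054422, chromosome 6, 71199827 to 71205023, plus strand) was listed at 0 in all knock-out and all wild-type libraries. A count of 0 in a whole genotype allows up to 0.0336 CPM in knock-out tumoroids and 0.0387 CPM in wild-type tumoroids (3 counts over the pooled libraries, counting error only). A listed 0 may also arise in the counting, since 6 of the 13 protein genes of the mitochondrial genome were at 0 in all libraries too. Of the 21734 protein-coding genes in the tables, 6300 had no count in any library.

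The start regions of the carrier pair and of the genes for apolipoprotein B and its loading protein are shown because these are the genes through which fat enters the pathway and leaves it. The sequences are from RefSeq for GRCm38.p6 and run from 250 bases before to 50 bases after the gene start as RefSeq places it. That start lies downstream of the GENCODE gene start given here, by 1550 bases for Mttp, 52 for Fabp1 and 29 for Apob, while the starts of Fabp2 are the same. They were matched by symbol, and 6 of the 10 genes had an entry. Capitals mark matches to any of 6 short motifs, searched on both strands. These were the HNF4 core CAAAGTCCA, held by 0.479% of 32544 promoters of the same length, the nuclear receptor half-site AGGTCA (16.2%), the palindromic HNF1 motif (0.00922%), the GATA motif AGATAA (11.2%), the CDX motif TTTATGG (2.77%) and the TATA box TATAAA (13.6%). The regions are chr3:122894822-122895121 (plus strand), chr6:71199629-71199928 (plus strand), chr3:138143369-138143668 (minus strand) and chr12:7977427-7977726 (plus strand), each printed 5′ to 3′ along its gene.
Fabp2: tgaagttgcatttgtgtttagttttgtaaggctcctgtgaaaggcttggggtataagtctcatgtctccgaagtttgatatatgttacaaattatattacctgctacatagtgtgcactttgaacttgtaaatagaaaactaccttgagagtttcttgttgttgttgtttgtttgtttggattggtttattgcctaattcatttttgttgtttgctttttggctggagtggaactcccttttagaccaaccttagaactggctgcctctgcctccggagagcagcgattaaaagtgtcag
Fabp1: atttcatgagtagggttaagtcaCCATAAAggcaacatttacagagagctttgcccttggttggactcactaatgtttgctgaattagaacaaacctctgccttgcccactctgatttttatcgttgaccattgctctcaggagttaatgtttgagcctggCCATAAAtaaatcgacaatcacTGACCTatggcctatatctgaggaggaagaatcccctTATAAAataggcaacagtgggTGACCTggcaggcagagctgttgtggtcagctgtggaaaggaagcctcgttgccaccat
Mttp: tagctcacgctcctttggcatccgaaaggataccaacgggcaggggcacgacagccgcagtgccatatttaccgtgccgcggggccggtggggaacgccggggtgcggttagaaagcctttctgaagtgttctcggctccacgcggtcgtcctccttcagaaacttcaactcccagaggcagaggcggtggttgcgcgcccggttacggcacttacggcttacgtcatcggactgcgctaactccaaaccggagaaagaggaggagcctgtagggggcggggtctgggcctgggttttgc
Apob: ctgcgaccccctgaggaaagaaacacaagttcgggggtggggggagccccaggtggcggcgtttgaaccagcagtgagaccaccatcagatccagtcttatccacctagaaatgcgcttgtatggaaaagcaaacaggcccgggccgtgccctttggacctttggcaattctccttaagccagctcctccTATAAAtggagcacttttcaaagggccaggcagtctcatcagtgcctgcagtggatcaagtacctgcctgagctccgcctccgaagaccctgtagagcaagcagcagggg

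In the Fabp1 window the reverse complement of the half-site, TGACCT, began at -67 and -9 from the RefSeq start, the reverse complement of the CDX motif, CCATAAA, at -227 and -89, and TATAAA at -30. Of these, TATAAA and the half-site match at -9 lie downstream of the GENCODE start of Fabp1. The Apob window held TATAAA at -60. The windows of Fabp2 and Mttp held none of the 6 motifs, and neither did those of Apoa1 and Apoa4. The Mttp window lies inside the GENCODE gene of Mttp, and most of it is also part of Trmt10a, which starts at 138143448 on the opposite strand. Its lack of matches describes that shared stretch and not the region before the GENCODE start of Mttp. A match is a description of letters and not a site of binding.

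The resynthesis of triacylglycerol from absorbed monoacylglycerol begins with Mogat2, the main monoacylglycerol acyltransferase of the intestine. Mogat2 (ENSMUSG00000052396, chromosome 7, 99219084 to 99238619, minus strand) had 6.88, 8.16 and 5.87 CPM in knock-out replicates 1, 2 and 3, against 3.31, 2.61 and 3.64 CPM in wild-type replicates 1, 2 and 3. Every knock-out library was above every wild-type library, and the highest was knock-out replicate 2. Mogat2 rose 2.14-fold, a log2 fold change of 1.10 with a standard error of 0.23 (edgeR, adjusted p = 0.0011).

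Dgat1 and Dgat2 encode the enzymes that add the last acyl chain to diacylglycerol. They catalyse the same reaction but are unrelated in sequence, and Dgat2 belongs to the same family as Mogat2. Dgat2 (ENSMUSG00000030747, chromosome 7, 99153658 to 99182719, minus strand) had 71.8, 65.6 and 74.2 CPM in knock-out replicates 1, 2 and 3, against 36.9, 33.0 and 39.1 CPM in wild-type replicates 1, 2 and 3. The groups were well separated, with a log2 fold change of 0.95 and a standard error of 0.10, a 1.94-fold rise (edgeR, adjusted p = 3.7e-06). Dgat2 had the smallest adjusted p of the 6 genes.

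Dgat1 (ENSMUSG00000022555, chromosome 15, 76502015 to 76511953, minus strand) had 30.8, 37.8 and 29.6 CPM in knock-out replicates 1, 2 and 3, against 36.3, 47.8 and 43.1 CPM in wild-type replicates 1, 2 and 3. Knock-out replicate 2 lay above wild-type replicate 1, so the groups overlapped. Dgat1 fell by 0.37 on the log2 scale with a standard error of 0.13, 1.29-fold lower in the knock-out (edgeR, adjusted p = 0.0266). The call did not hold when knock-out replicate 1 (adjusted p = 0.0891), knock-out replicate 3 (0.107), wild-type replicate 2 (0.121) or wild-type replicate 3 (0.0715) was left out.

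The pair thus moved in opposite directions, and their balance was compared within each library. The per-length ratio of Dgat2 to Dgat1 was 2.31, 1.72 and 2.49 in knock-out replicates 1, 2 and 3, against 1.01, 0.685 and 0.900 in wild-type replicates 1, 2 and 3. In the knock-out, Dgat2 was the more abundant transcript in every library, and in the wild-type the pair was near parity or Dgat1 was the more abundant. On the log2 scale the ratio was 1.10 ± 0.28 in knock-out tumoroids and -0.23 ± 0.29 in wild-type tumoroids (SD, n = 3 each), a difference of 1.33. The two-sided exact permutation test gave p = 0.1, the smallest value that 3 against 3 libraries allow, and 0.3 after adjustment over the 3 ratios tested. With the longest annotated transcript in place of all exons as the length, the mean log2 ratios were 0.86 for knock-out libraries, against -0.48 for wild-type libraries, with the same difference. The ratio of Mogat2 to Dgat2 was -2.60 ± 0.33 in knock-out tumoroids and -2.77 ± 0.12 in the wild-type on the log2 scale, a difference of 0.17 (exact permutation p = 0.5, adjusted p = 0.5).

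Mttp encodes the lipid-binding subunit of the microsomal triglyceride transfer protein, without which apolipoprotein B is broken down in the cell. Mttp (ENSMUSG00000028158, chromosome 3, 138089854 to 138144968, minus strand) had 11.0, 7.90 and 9.78 CPM in knock-out replicates 1, 2 and 3, against 4.52, 3.15 and 3.16 CPM in wild-type replicates 1, 2 and 3. No value of the knock-out overlapped the wild-type. Mttp rose 2.62-fold, with a log2 fold change of 1.39 and a standard error of 0.23 (edgeR, adjusted p = 1.6e-04). Exons of Mttp overlap those of Trmt10a, a tRNA methyltransferase gene on the opposite strand. The libraries were prepared to keep the strand, but the strand setting of the counting is not stated, so reads of the shared stretch may have been counted for either gene or for neither. Trmt10a had 25.5 ± 2.04 CPM in knock-out tumoroids and 21.6 ± 1.60 CPM in wild-type tumoroids (adjusted p = 0.0961).

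Apob encodes apolipoprotein B, the single large protein around which chylomicrons in the gut and very low density lipoproteins in the liver are built. Apob (ENSMUSG00000020609, chromosome 12, 7977648 to 8016835, plus strand) had 784, 313 and 801 CPM in knock-out replicates 1, 2 and 3, against 123, 166 and 58.1 CPM in wild-type replicates 1, 2 and 3. Knock-out replicate 2, the library that stood apart, was the lowest of its genotype and still above the highest wild-type library. On the log2 scale the fitted change was 2.46, standard error 0.36, a 5.49-fold rise and the largest change among the 6 genes (edgeR, adjusted p = 1.2e-04). Without knock-out replicate 2 the log2 fold change was 2.76. Over the 6 fits that each left out 1 library, it ranged from 2.13 to 2.80, or 4.39-fold to 6.96-fold.

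Apob and Mttp were both higher, and their balance was compared within each library in the same way. The per-length ratio of Apob to Mttp was 31.6, 17.6 and 36.5 in knock-out replicates 1, 2 and 3, against 12.2, 23.5 and 8.20 in wild-type replicates 1, 2 and 3. Wild-type replicate 2 lay above knock-out replicate 2, so the ratios of the genotypes overlapped. The log2 ratio was 4.77 ± 0.56 in knock-out tumoroids and 3.73 ± 0.77 in wild-type tumoroids (SD, n = 3 each), a difference of 1.04 (two-sided exact permutation p = 0.2, adjusted p = 0.3).

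**Figure D2:**
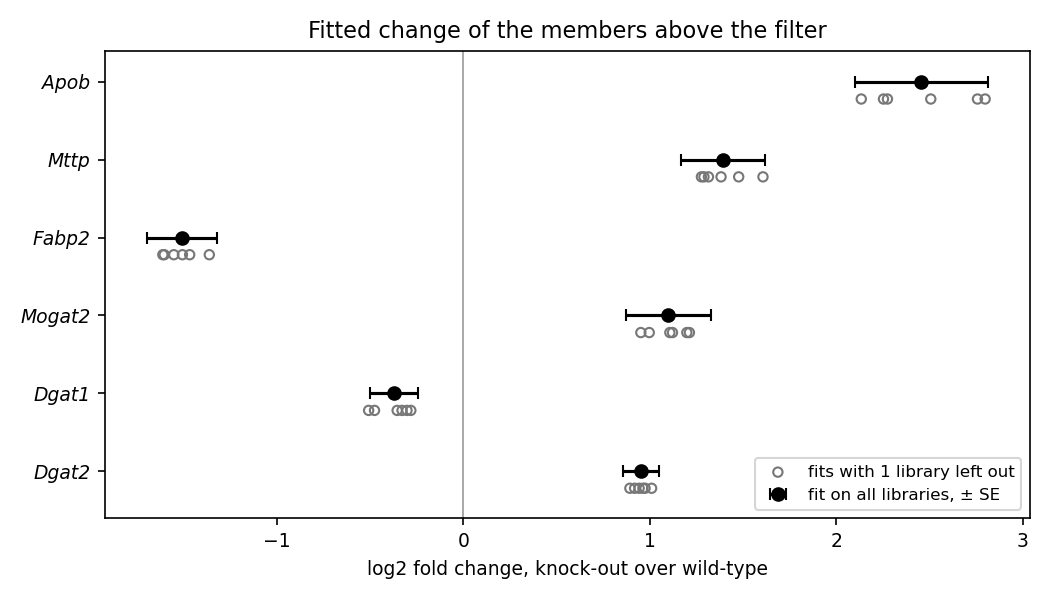
Fitted log2 fold change of knock-out over wild-type on the horizontal axis for the 6 genes that passed the filter, with filled points and bars for the fit on all libraries ± SE and open circles for the 6 fits that each left out 1 library. All circles of a gene lie on the same side of 0 as its filled point, and Apob spans the widest range, 2.13 to 2.80.

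The apolipoproteins that join the particle surface were at or near 0. Apoa1, the main protein of high density lipoproteins and also a product of enterocytes, had 0, 0 and 0 counts in knock-out replicates 1, 2 and 3, against 14, 0 and 4 counts in wild-type replicates 1, 2 and 3. Wild-type replicate 2 was as empty as the knock-out libraries. Set against the limit of 3 counts over the pooled knock-out libraries, Apoa1 was at least 6.92-fold lower in the knock-out. The bound rests mainly on wild-type replicate 1, without which 4 wild-type counts were left and it was 2.50-fold. Apoa1 did not pass the filter, and a fit without a filter, over 23335 genes, called it lower (edgeR, adjusted p = 0.0272). That fit gave Apob an adjusted p of 7.9e-179, against 1.2e-04 with the filter, at nearly the same fold change. No weight is therefore placed on its call of Apoa1. Apoa4, made with fat absorption and carried on chylomicrons, and Apoc3, which slows the clearance of triacylglycerol-rich particles from plasma, were listed at 0 in every library, under the same limits as Fabp1. Exons of Apoa4 also overlap those of Gm47528 and Gm10680 on the opposite strand, both at 0 counts. The limit from the unstated strand setting, given for Mttp, therefore applies to Apoa4 too.

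The 3 surface apolipoprotein genes lie side by side on chromosome 9, Apoa1 (ENSMUSG00000032083) from 46228580 to 46230466 on the plus strand, Apoc3 (ENSMUSG00000032081) from 46232933 to 46235636 on the minus strand and Apoa4 (ENSMUSG00000032080) from 46240696 to 46243459 on the plus strand. Apoa5, the next gene of the cluster, had 0 counts over the knock-out libraries and 1 over the wild-type libraries. The genes that flank the cluster, Sik3 and Zpr1, had log2 fold changes of 0.11 (Sik3) and -0.0019 (Zpr1) and were not called. Dgat2 and Mogat2 are also neighbours, on chromosome 7, and both were higher. The next gene beyond Mogat2, Map6, was higher as well, with 58.7 ± 4.19 CPM in knock-out tumoroids and 10.3 ± 2.81 CPM in wild-type tumoroids (edgeR, adjusted p = 3.8e-08), while Uvrag on the Dgat2 side had 38.9 ± 3.74 CPM in knock-out and 35.1 ± 1.09 CPM in wild-type libraries and was not called (adjusted p = 0.228). Ldah, the next protein-coding gene downstream of Apob, had 60.0 ± 2.72 CPM in knock-out tumoroids and 61.3 ± 1.71 CPM in wild-type tumoroids (adjusted p = 0.788). Over the 5 nearest protein-coding genes on each side of all 10 genes, 45 of 70 distinct neighbours were tested, of which 14 were higher and 9 lower. Among all genes tested, 30.4% were higher and 27% lower.

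Levels were compared between genes per kilobase of exon. In the knock-out the order was Apob at 45.4 ± 19.9, Dgat2 at 22.9 ± 1.43, Dgat1 at 10.7 ± 1.45, Fabp2 at 5.33 ± 1.29, Mogat2 at 3.80 ± 0.62 and Mttp at 1.54 ± 0.26 CPM per kb (mean ± SD, n = 3). In the wild-type the order was Fabp2 at 15.3 ± 0.87, Dgat1 at 13.9 ± 1.89, Dgat2 at 11.8 ± 1.00, Apob at 8.31 ± 3.90, Mogat2 at 1.74 ± 0.29 and Mttp at 0.581 ± 0.127 CPM per kb. By this length Fabp2 stood first in the wild-type and below Apob, Dgat2 and Dgat1 in the knock-out. From Fabp2 down to Apob, neighbours in the wild-type order had library values that overlapped, while Mogat2 and Mttp lay apart from the other genes and from each other. In the knock-out, knock-out replicate 2 of Apob, at 22.5 CPM per kb, lay among the Dgat2 values, the Fabp2 and Mogat2 values overlapped, and the other neighbours did not. Among 12271 protein-coding genes tested, Apob ranked 1110 in knock-out tumoroids and 5744 in the wild-type, and Fabp2 ranked 7308 among knock-out levels, against 3662 among wild-type levels. Mttp stayed low in both genotypes, at rank 9822 among knock-out levels, against 10554 among wild-type levels. Using the longest transcript as the length, Mttp had 2.42 CPM per kb in knock-out tumoroids and 0.910 in the wild-type. With that length Fabp2 was not first in the wild-type. Its 15.3 CPM per kb lay below Dgat1 at 22.4 and Dgat2 at 16.1, so its place in the wild-type order depends on the length used.

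**Figure D3:**
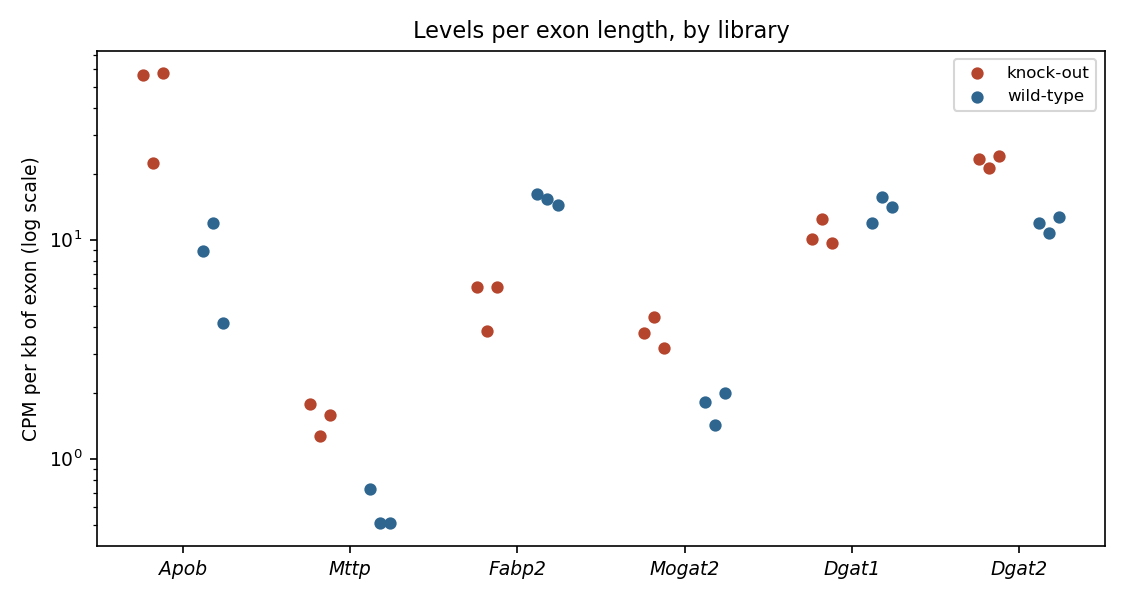
CPM per kilobase of exon on a logarithmic vertical axis for each of the 6 genes that passed the filter, with each library a point, knock-out in red left of wild-type in blue. Apob spans 22.5 to 57.5 CPM per kb in knock-out tumoroids and 4.17 to 11.9 CPM per kb in the wild-type, and Mttp is the lowest gene in both genotypes.

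Within the knock-out, replicate 2 was the lowest library for Fabp2, Mttp, Apob and Dgat2 and the highest for Mogat2 and Dgat1. With it left out, all 6 calls held, 4 higher and 2 lower.

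The steps around these genes were described through lists of further pathway genes. Their counts of calls, and those of the markers and sterol genes further below, stand beside 30.4% higher and 27% lower among all genes tested. No list was tested as a set. Among genes of luminal uptake and acyl-CoA activation, 3 of 11 tested genes rose, 7 fell and 1 was not called, with a median log2 fold change of -0.44. Acsl1, an acyl-CoA synthetase, had 12.8 ± 0.98 CPM in knock-out tumoroids and 47.4 ± 2.55 CPM in wild-type tumoroids, 3.69-fold lower (edgeR, adjusted p = 2.4e-08). Acsl3, the synthetase of nascent lipid droplets, was 1.61-fold lower (adjusted p = 4.7e-06). In the other direction, Scarb1, a receptor for high density lipoprotein and lipids, rose 1.79-fold to 125 ± 5.24 CPM in the knock-out, against 69.6 ± 4.42 CPM in wild-type tumoroids (adjusted p = 2.4e-06). The other genes that rose were Slc27a4, the fatty acid transport protein of the intestine, and Acsl4, whose call was lost in 7 of 16 alternatives.

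Of 12 tested genes of glycerolipid synthesis, most of them in the route that starts from glycerol phosphate, 4 rose (Gpat3, Agpat2, Agpat1 and Lpin3), 4 fell (Agpat5, Agpat4, Lpin1 and Gpam) and 4 were not called, and the median log2 fold change was 0.03. The number called higher was 2 with upper-quartile scaling, without knock-out replicate 3, wild-type replicate 1 or wild-type replicate 2, and at an adjusted p of 0.01. Lpin3 lost its call in 8 of 17 alternatives and Agpat1 in 4, and Gpam lost its call without wild-type replicate 2. Gpat3, a glycerol phosphate acyltransferase, had 5.71, 5.20 and 6.68 CPM in knock-out replicates 1, 2 and 3, against 0.134, 1.31 and 0.111 CPM in wild-type replicates 1, 2 and 3. It rose 13.2-fold (edgeR, adjusted p = 2.8e-05), and 46.2-fold without wild-type replicate 2, which held most of the wild-type counts. Agpat2 and Agpat5, acyltransferases of the next step, moved apart. Agpat2 rose 1.58-fold to 84.7 ± 12.9 CPM in the knock-out, against 53.6 ± 6.85 CPM in wild-type tumoroids, and Agpat5 was 1.27-fold lower, with 101 ± 7.49 CPM in knock-out tumoroids and 129 ± 4.17 CPM in wild-type tumoroids.

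Genes of lipid droplets and lipolysis were more often higher than lower, with 10 of 17 tested genes up, 3 down and 4 not called, and a median log2 fold change of 0.88. The number called higher ranged from 8, without wild-type replicate 1 and at an adjusted p of 0.01, to 11 without wild-type replicate 2. Plin5 lost its call in 4 of 17 alternatives. Plin2, the coat protein of most lipid droplets, had 254, 216 and 275 CPM in knock-out replicates 1, 2 and 3, against 61.3, 67.7 and 62.3 CPM in wild-type replicates 1, 2 and 3. It rose 3.90-fold (edgeR, adjusted p = 6e-09). Hsd17b11, a droplet-bound dehydrogenase, rose 3.35-fold, and Abhd5, the co-activator of the lipase Pnpla2, rose 2.71-fold. The 3 genes that fell were Plin3, Pnpla2 and Hsd17b13, of which Pnpla2, the first enzyme of droplet lipolysis, had 113 ± 6.81 CPM in knock-out tumoroids and 175 ± 7.09 CPM in wild-type tumoroids.

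Of 17 tested genes of lipoprotein assembly and export, 4 rose, 4 fell and 9 were not called, with a median log2 fold change of 0.05. P4hb, the partner subunit of the transfer protein, was among those not called, with a fitted fold change of 1.03 (adjusted p = 0.63). The 4 that fell included Sort1, a sorting receptor, which was 5.03-fold lower at 53.6 ± 6.12 CPM in the knock-out, against 270 ± 4.88 CPM in wild-type tumoroids. They also included Prap1, at least 33.5-fold lower (25.7-fold without wild-type replicate 2), with 0 counts in the knock-out libraries and 87 in the wild-type libraries. Sar1b, the small GTPase of vesicles that carry chylomicrons, was also among them, with 60.9, 64.5 and 60.5 CPM in knock-out replicates 1, 2 and 3, against 80.8, 79.5 and 83.2 CPM in wild-type replicates 1, 2 and 3. Sar1b fell 1.31-fold, and its paralog Sar1a rose 1.22-fold. The other 3 that rose were Tango2, Cideb, which is also in the droplet list, and Vmp1, and the call of Cideb was lost without knock-out replicate 1 or wild-type replicate 1 and that of Vmp1 in 13 of 17 alternatives.

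Of 7 tested genes in the list of other apolipoproteins, their receptor and the factors of Apob editing, 2 rose, 2 fell and 3 were not called. Clu, which encodes the secreted chaperone clusterin, also known as apolipoprotein J, rose 7.88-fold to 1694 ± 70.2 CPM in the knock-out, against 215 ± 42.8 CPM in wild-type tumoroids (edgeR, adjusted p = 1.2e-09). Apobr, a receptor for apolipoprotein B particles, rose 12.9-fold from a low level, with 168 counts over the knock-out libraries and 11 over the wild-type libraries. Apoe fell 2.07-fold, and without wild-type replicate 1 its call was lost (adjusted p = 0.0646). A1cf encodes an RNA-binding partner of Apobec1, the deaminase that edits Apob mRNA so that enterocytes make a short form of the protein. A1cf had 0, 0 and 0 CPM in knock-out replicates 1, 2 and 3, against 6.46, 8.28 and 5.05 CPM in wild-type replicates 1, 2 and 3, at least 192-fold lower in the knock-out. Apobec1 had 11.5 ± 1.21 CPM in knock-out tumoroids and 14.1 ± 1.37 CPM in wild-type tumoroids and was not called (adjusted p = 0.12). Gene counts do not show whether Apob transcripts were edited.

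Of 28 tested genes in the list of transcription factors of enterocyte lipid genes, 10 were higher, 14 lower and 4 not called, with a median log2 fold change of -0.63. Whether each acts on the 10 genes in these cultures was not tested. Hnf4a, a nuclear receptor that binds the promoters of many lipid genes in liver and gut, was 2.73-fold lower, with 176 ± 8.48 CPM in knock-out tumoroids and 480 ± 5.24 CPM in wild-type tumoroids (edgeR, adjusted p = 4.8e-09). Cdx2, the homeobox factor of intestinal identity, was 9.39-fold lower at 20.6 ± 1.30 CPM in the knock-out, against 193 ± 10.6 CPM in wild-type tumoroids. Isx, an intestinal homeobox factor, had 17 counts in the knock-out libraries together and 4128 in the wild-type libraries together. In the other direction, Gata6 had 2249 counts in the knock-out libraries and 11 in the wild-type libraries.

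**Figure D4:**
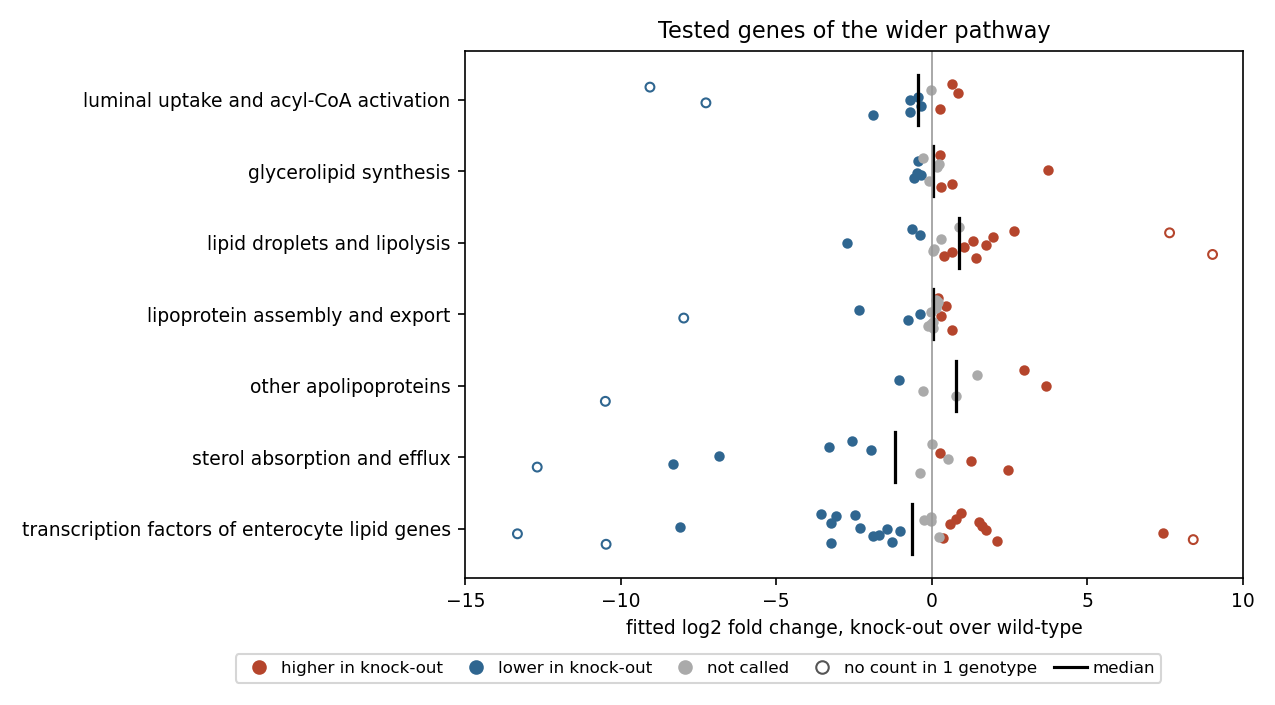
Fitted log2 fold change of knock-out over wild-type on the horizontal axis for the tested genes of 7 pathway lists, with genes called higher in red, lower in blue and not called in grey, and a black line for each list's median. Open circles are genes with no count in 1 genotype, whose position depends on the prior count of the fit. Lipid droplet genes lie mostly right of 0 (median 0.88) and sterol genes mostly left (median -1.17).

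Markers of cell types were measured beside these genes. Of 20 enterocyte markers, 15 were tested, of which 2 were higher (Rbp2 and Krt20), 12 lower and 1 not called, and the summed level of the list was 276 to 302 CPM in knock-out libraries and 930 to 950 CPM in wild-type libraries. Vil1, 1.85-fold lower, held 231 ± 16.2 CPM of the knock-out sum and 428 ± 16.1 CPM of the wild-type sum. Vil1 thus made up most of the knock-out sum and a smaller share of the wild-type sum. The glucose transporter Slc5a1 had 6 counts in the knock-out libraries and 5692 in the wild-type libraries, and the microvillus protein Cdhr5 had 10 in the knock-out libraries and 4595 in the wild-type libraries. Mgam, a brush border disaccharidase, had 12.6 ± 2.58 CPM in knock-out tumoroids and 291 ± 30.9 CPM in wild-type tumoroids. In CPM this drop was larger than that of Vil1. Of the 10 genes of fat absorption, Fabp2 and Dgat1 moved in the direction of this list and Apob, Mttp, Dgat2 and Mogat2 in the other, and the part of the change in enterocyte markers in any of them was not tested.

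Apob, Mttp and Fabp1 are also genes of hepatocytes and of the yolk sac. Of 15 hepatocyte markers, 8 were listed at 0 in every library, among them Ahsg, Fga, Fgb and Fgg, and the whole list summed to 0.537 to 0.973 CPM in knock-out libraries and 2.12 to 3.20 CPM in wild-type libraries. In this and the other marker lists, a listed 0 may arise in the counting. Alb, which encodes albumin, had 0 counts in the knock-out libraries and 1 in the wild-type libraries. Cps1 and Hp, the hepatocyte markers that were tested, were both lower, with 0 counts in the knock-out. Of 12 visceral endoderm markers, 7 were tested, with 4 higher (Afp, Cubn, Lrp2 and Lgmn), 2 lower (Amn and Sox17) and 1 not called, and they summed to 57.7 to 65.7 CPM in knock-out and 106 to 132 CPM in wild-type libraries. The call of Afp was lost in 3 of 16 alternatives. Of 8 adipocyte markers, 2 were tested, Lpl was lower and Cidec was not called, and the sums were 0.758 to 1.00 CPM in knock-out and 1.07 to 1.65 CPM in wild-type libraries, with Adipoq, Lep and Cfd at 0.

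Macrophage and leukocyte markers summed to 23.9 to 24.6 CPM in knock-out libraries and 4.12 to 8.38 CPM in wild-type libraries. Of 10 such markers, 4 were tested and 3 were higher, Csf1r (10.9 ± 0.36 CPM in knock-out tumoroids and 0.605 ± 0.723 CPM in wild-type tumoroids), Cd68 (11.9 ± 0.44 CPM in knock-out and 3.71 ± 2.34 CPM in wild-type tumoroids) and Ptprc (39 counts in knock-out tumoroids and 2 in the wild-type libraries), while Adgre1 and Tyrobp were listed at 0 in every library. Lyz2, below the filter, went the other way, with 19 counts in the wild-type libraries and none in the knock-out. Without wild-type replicate 1, 4 of its counts were left. Of 10 fibroblast and endothelial markers, Col1a1 alone was tested and it was higher, and the sums were 0.678 to 0.898 CPM in knock-out and 0 to 0.581 CPM in wild-type libraries. Pdgfra, below the filter, had 13 counts in the wild-type libraries and none in the knock-out. Epithelial markers summed to 10885 to 12704 CPM in knock-out and 8623 to 9299 CPM in wild-type libraries, with 3 of 10 higher (Krt19, Krt8 and Krt18), 6 lower and 1 not called. These 3 keratin genes account for the higher sum, since no other marker of the list was higher. Among the lower ones, Esrp1 lost its call in 5 of 17 alternatives. Of 12 gastric epithelium markers, 6 were tested, with 4 higher (Tff1, Tff2, Ctse and Vsig1), 1 lower (Gkn3) and 1 not called, and the sums were 637 to 730 CPM in knock-out and 29.7 to 39.8 CPM in wild-type libraries. Pgc, below the filter, had 14 counts in the wild-type libraries and none in the knock-out. The mitochondrial share of counts was 2.15% to 3.46% in knock-out and 6.18% to 7.58% in wild-type libraries. The part of these differences in the changes of the 10 genes was not tested.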

How the data were processed

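RNA was sequenced from 3 knock-out and 3 wild-type tumoroid libraries. Per the labels' protocols, the libraries were stranded and polyA-selected. The submitters' processing notes name STAR and the build GRCm38. The STAR version, the counting program, its strand setting and its annotation are not stated there. The authors deposited raw counts, whole numbers without normalization, for 49585 Ensembl identifiers per library. Symbols, positions and exon lengths were taken from GENCODE for GRCm38, which named 49326 of them.

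From the counts, genotype was tested in R 4.3.3 by edgeR 4.0.16 with its quasi-likelihood method (TMM scaling, filterByExpr with a minimum count of 10 and a minimum total of 15, Benjamini-Hochberg adjustment over all 13759 genes that passed, threshold 0.05). The same code was first tested on simulated data. CPM values are TMM-scaled, and levels per kb divide them by the length of all exons. For a genotype with 0 counts, the bound is 3 counts over its pooled libraries. A fold given as at least a value takes the wild-type level as measured, so it covers counting error in the knock-out only. With 1 wild-type library left out, it went as low as 25.7-fold for Prap1, 173-fold for A1cf and 858-fold for Abcg5. A CPM of 1 is 20.7 to 31.7 counts in a library. Every pair of libraries of a genotype differed by more than sampling noise (chi-square per degree of freedom 5.64 to 37.0), so all 6 were counted separately. Ratios between genes were tested by two-sided exact permutation. Of the ratios planned, 3 had a count in every library, and those of Fabp1 to Fabp2, Apoa4 to Apoa1 and Apoc3 to Apoa1 did not.

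The members and the gene lists were chosen with earlier results of these data known. The text names all 10 members, from each list up to 3 genes with the smallest adjusted p and called genes in a count of 5 or fewer (genes not called are counted but mostly not named), Chuk, neighbours in a shared cluster, and some further genes chosen after their values were seen (Hnf4a, Apobec1, P4hb, Apoa5, Vil1, Npc1l1, Abcg5, Soat2, Esrp1, Alb, the markers named at 0, Lyz2, Pdgfra, Pgc, Ldah, Uvrag, Map6, Trmt10a, Xist and Eif2s3y). One gene of the lipoprotein assembly list is counted there but not reported here by name. The lists share Cideb, Cidec, Apom and Ttr. Alternatives were other scalings (DESeq2 1.42.0 size factors, upper quartile, library size), other filters, the DESeq2 Wald test, voom of limma 3.58.1, the replicate number as a term, protein-coding genes only, an adjusted p of 0.01 and leaving out each library. The legacy edgeR fit and leaving out chromosomes X, Y, 5 and M were added after seeing the data.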

Additional observations from a re-analysis of the deposited data

How the results depend on the processing

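The calls of Apob, Mttp, Dgat2, Mogat2 and Fabp2 kept their direction and stayed past the threshold under all 17 alternative fits and at an adjusted p of 0.01, with log2 fold changes of 2.13 to 2.80, 1.28 to 1.61, 0.89 to 1.01, 0.95 to 1.21 and -1.61 to -1.36. Dgat1 kept its direction but lost its call in 4 of the 6 fits that left out 1 library (log2 fold change -0.51 to -0.28 over the 6), so that 1 or 2 of the 10 genes were called lower there. At an adjusted p of 0.01, 1 was called lower. The smaller number of libraries in these fits and the stricter threshold are part of their construction. Without a filter 3 were called lower, the added gene being Apoa1, on whose call no weight is placed for the reason given above. Over all genes, 7896 were called, against 7077 to 8899 with 1 library left out, 8527 without a filter and 6397 at an adjusted p of 0.01. Correlations of deviations of same-numbered libraries were 0.25, -0.20 and -0.37, and the highest of any pair was 0.47, for knock-out replicate 2 and wild-type replicate 3. Deviations from a mean of 3 libraries offset one another, so these values cannot decide whether replicate numbers pair the libraries. A fit with a replicate block called 7432 genes and the same 4 higher and 2 lower among the 10. Of the scalings, upper quartile moved the median log2 fold change furthest, by -0.0567, and with it 48.2% of calls were higher, beside 53.0% with TMM. Of 116 listed genes called, 105 kept their call in every alternative fit that tested them. Depth limits Apoa1, Apoa4, Apoc3 and Fabp1 most, each with 18 counts or fewer in all.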

Other observations

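The sterol side of absorption, which the account above leaves aside, moved mainly downward. Of 12 tested genes of sterol absorption and efflux, 3 rose, 6 fell and 3 were not called, with a median log2 fold change of -1.17 (edgeR quasi-likelihood test, adjusted p under 0.05). Npc1l1, the cholesterol importer of the brush border, had 2, 0 and 0 counts in knock-out replicates 1, 2 and 3, against 106, 67 and 65 counts in wild-type replicates 1, 2 and 3. Abcg5 and Abcg8, whose products pair to pump sterols back into the lumen, lie head to head on the genome and fell together. Abcg5 had 0 counts in every knock-out library and 31.5, 26.8 and 30.3 CPM in wild-type replicates 1, 2 and 3, at least 890-fold lower in the knock-out. Abcg8 had 5, 0 and 0 counts in knock-out replicates 1, 2 and 3, against 611, 314 and 600 counts in wild-type replicates 1, 2 and 3.

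Soat2, which esterifies absorbed cholesterol for export in enterocytes, had 0.758, 0.786 and 0.903 CPM in knock-out replicates 1, 2 and 3, against 8.64, 7.02 and 8.73 CPM in wild-type replicates 1, 2 and 3, and was 9.99-fold lower (adjusted p = 4e-07). Its paralog Soat1 was 3.90-fold lower, at 35.1 ± 1.99 CPM in knock-out tumoroids and 137 ± 5.46 CPM in wild-type tumoroids, and the sterol carrier Stard5 was 5.92-fold lower. The 3 genes that rose were Abcg1, Cyp27a1 and Nr1h2. Abcg1, a sterol exporter of many cell types, rose 5.45-fold to 5.50 ± 0.55 CPM in the knock-out, against 1.03 ± 0.22 CPM in wild-type tumoroids. The call of Nr1h2 was lost in 5 of 17 alternatives.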
